A study of Drosophila melanogaster with 3 samples.

Results

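The 10 genes described here encode enzymes of glycolysis in *Drosophila melanogaster*, and the data show where the DNA-binding protein CG12104 was found in and around them. They are *Pgi*, *Pfk*, *Ald1*, *Tpi*, *Gapdh1*, *Gapdh2*, *Pgk*, *Pglym78*, *Eno* and *Pyk*, taken by symbol from the Ensembl BDGP6 annotation out of 13945 protein-coding genes on the chromosomes that carry reproducible peaks. The hexokinase genes, for the first step from glucose, are not among these 10 and are counted with other genes of glucose metabolism. CG12104, an HMG-box protein, was mapped by chromatin immunoprecipitation and sequencing (ChIP-seq) in whole embryos 0 to 24 h old. The embryos were of both sexes, pooled, from 1 transgenic line that stably makes CG12104 with GFP at its C-terminus, and an antibody against GFP was used. There was 1 group of 3 biological replicates. What drives the fusion gene is not stated in the labels, and untagged embryos were not analysed here.

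Glycolysis breaks glucose down to pyruvate in a chain of steps that begins by spending ATP, in the preparatory phase, and ends by making ATP and NADH, in the pay-off phase. In fly embryos the nuclear receptor ERR is known to raise the expression of most of these genes together partway through embryogenesis, ahead of larval growth. Several of the genes have more than 1 annotated transcription start site (TSS), so that their transcripts begin at different first exons.

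The region lists carry a signal value on the scale of each list and no read counts, so depth is unknown. The reproducible set, chosen by the irreproducible discovery rate (IDR), held 4060 regions, the pooled list 26959 and each replicate list 30000. By its title the pooled list holds background as well as peaks. A region listed there but not in the IDR set is therefore not by itself a bound site. Ranks run from 1 for the highest signal in a list. A top region is one among the 4060 highest of a replicate, and a start-site peak is one whose summit lies within 500 bp of an annotated TSS. Summits lay at the middle of 92.0% of IDR regions, whose median width was 450 bp. The precision of the summits is not given with the lists, so their positions are to be read as approximate. Embryos of all ages and tissues were mixed, so binding in fewer cells and weaker binding per cell cannot be told apart.

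CG12104 was found at the start sites of 4 of the 10 glycolytic genes, *Gapdh2*, *Eno*, *Pgk* and *Pyk*, in order of signal. All 4 belong to the pay-off phase. Of the 6 pay-off genes 4 had a start-site peak in the IDR set, and of the 4 preparatory genes (*Pgi*, *Pfk*, *Ald1* and *Tpi*) 0 had one. The split by phase was not planned and depends on the list of members. Hexokinase, which spends ATP at the first step, is not on that list, and its gene *Hex-A* had a start-site peak with a pooled signal of 587. Across all protein-coding genes the share was 18.7%. All 10 members have 2 to 5 annotated TSS, more than the median gene, which has 1. Among the 3607 genes with as many TSS the share was 30.2%, a comparison chosen after seeing the data. With only 10 genes and 1 group of samples these are counts and not tests.

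The sequences around a start-site summit of each bound gene, outside annotated UTRs, are shown because they are the DNA on which these peaks were centred. They are from the Release 6 (dm6) assembly, on the strand of the gene, 5′ to 3′. Capitals mark matches on either strand to those searched words that have at least 6 letters. *Gapdh2* is chrX:15867889-15868089 on the plus strand, *Eno* chr2L:1727881-1728037 on the minus strand, and *Pyk* chr3R:22368871-22369071 on the plus strand. The *Pgk* sequence is that of its second and lower start-site peak, since the highest lies in a 5′ UTR, and is chr2L:2750315-2750515 on the minus strand.
Gapdh2: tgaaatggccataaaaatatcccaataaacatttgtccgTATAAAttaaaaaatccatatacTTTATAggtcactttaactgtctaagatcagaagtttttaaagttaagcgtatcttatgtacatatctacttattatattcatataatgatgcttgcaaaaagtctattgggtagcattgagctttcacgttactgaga
Eno: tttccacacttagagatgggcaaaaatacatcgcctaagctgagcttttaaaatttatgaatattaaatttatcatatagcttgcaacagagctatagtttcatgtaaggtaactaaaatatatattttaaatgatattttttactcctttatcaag
Pgk: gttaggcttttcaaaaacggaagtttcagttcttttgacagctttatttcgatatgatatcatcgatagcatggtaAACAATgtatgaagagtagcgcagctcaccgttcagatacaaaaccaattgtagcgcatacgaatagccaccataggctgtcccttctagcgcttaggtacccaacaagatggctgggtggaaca
Pyk: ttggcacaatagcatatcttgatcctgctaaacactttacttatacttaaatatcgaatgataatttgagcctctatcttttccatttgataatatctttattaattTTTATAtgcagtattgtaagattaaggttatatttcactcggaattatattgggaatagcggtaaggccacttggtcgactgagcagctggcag

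The highest signal was at *Gapdh2* (FBgn0001092, X 15868145 to 15869661, plus strand), which encodes a glyceraldehyde phosphate dehydrogenase, the enzyme of the step that makes NADH. Its region, X 15867822 to 15868157, had a pooled signal of 1044 and ranked 23 of the 4060 IDR regions, and 15 of the 2040 IDR regions at the start sites of protein-coding genes. The replicate signals were 408, 378 and 244 in replicates 1, 2 and 3, each on its own scale, and the ranks were 16, 44 and 21 (mean 27.0 ± 14.9, SD, n = 3). It ranked 44 or better in every replicate. The summit lay at -156 bp from the first TSS in the pooled data and at -160, -144 and -170 bp in the replicates. Its 2 TSS are 66 bp apart and share this region.

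*Eno* (FBgn0000579, 2L 1724768 to 1729636, minus strand) encodes enolase, which makes phosphoenolpyruvate. Its highest region, 2L 1727712 to 1728161, had a pooled signal of 552 and ranked 187. It was not at the first start site: its summit lay inside the gene, 1699 bp downstream of the first TSS and at -220 bp from the last of 3. The replicate signals were 225, 209 and 124, and the ranks 136, 253 and 144 (mean 178 ± 65.4, SD, n = 3). A lower region at the first TSS, with the summit at -32 bp and a signal of 155, ranked 2764, 2167 and 2920. All 3 replicates thus placed the downstream start site above the upstream one. The region at the first TSS is also within 500 bp of a start site of CG31937, and its summit lay under the 3′ UTR of the neighbouring gene *Rrp40*. No pooled region lay within 500 bp of the middle TSS.

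*Pgk* (FBgn0250906, 2L 2746880 to 2753068, minus strand) encodes phosphoglycerate kinase, the enzyme of the first ATP-making step. It showed the same arrangement over 5 TSS. Its highest start-site region, 2L 2748513 to 2748962, had a pooled signal of 296 and ranked 705, with the summit at -251 bp from the fifth TSS, 4330 bp downstream of the first. The replicate signals were 135, 110 and 46.4, and the ranks 500, 914 and 1161 (mean 858 ± 334, SD, n = 3). The summit lay in a 5′ UTR exon of other *Pgk* transcripts. A second IDR region, with a signal of 208, had its summit at -268 bp from the third TSS and ranked 1567, 1404 and 1700. At the first TSS there was a pooled region with the summit at -269 bp and a signal of 100.5, below the lowest IDR signal of 105.9. That summit was nearer to a TSS of the neighbouring gene *Bacc*, at 104 bp. The start-site regions of the first *Pgk* TSS ranked 3720, 8955 and 3334 in the replicates. In all 3 replicates the first TSS of *Pgk* therefore ranked below the fifth.

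*Pyk* (FBgn0267385, 3R 22367536 to 22372746, plus strand; spelled PyK in the annotation) encodes pyruvate kinase, the last enzyme of the pathway. Its 2 TSS had similar signals. The region at the second TSS, 3R 22368746 to 22369195, had a pooled signal of 151, ranked 2409, and had its summit at -311 bp from that TSS, 1435 bp inside the gene. The highest overlapping regions of the replicates had signals of 67.9, 54.6 and 34.8 and ranked 2085, 2895 and 1916 (mean 2299 ± 523, SD, n = 3). In replicate 2 that region had its summit at -536 bp, beyond 500 bp, and the highest region within 500 bp ranked 3987. The region at the first TSS had a pooled signal of 134 and its summit at -170 bp, and ranked 3311, 2194 and 5749. So the downstream TSS was the higher in replicates 1 and 3 and the upstream TSS in replicate 2. The upstream region is shared with *Polr3F*, a gene for a subunit of RNA polymerase III, whose TSS is 7 bp from the summit.

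The order of the 4 genes was the same in all 3 replicates, with *Gapdh2* first, then *Eno*, *Pgk* and *Pyk*, and the ranges of their ranks over the replicates did not overlap. In 3 of the 4 genes the highest start-site peak of the pooled data was nearest to a TSS over 500 bp downstream of the first. Among the 1089 protein-coding genes with 2 to 5 TSS and a start-site peak the share was 27.5%. They include genes such as *Gapdh2*, whose TSS are 66 bp apart and which could not be counted. The share among genes with TSS further apart was not computed. This feature was chosen after it had been seen in these genes. With the most upstream TSS of each gene alone, 3 members had a start-site peak, against 16.7% of all genes, and *Pgk* was the one that dropped out. The median distance of the highest summit to the nearest TSS was -235.5 bp over the 4 members and -155 bp over the 2613 genes with a start-site peak, of which 89.9% had it upstream.

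**Figure D1:**
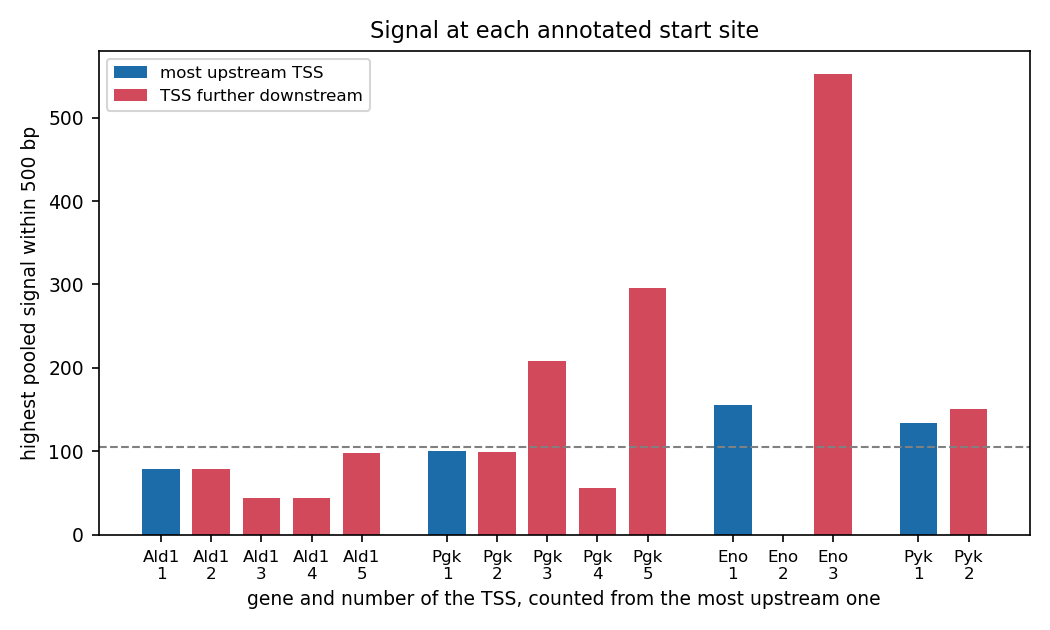
Highest pooled signal (vertical axis, scale of the pooled list) within 500 bp of each annotated TSS of *Ald1*, *Pgk*, *Eno* and *Pyk*, numbered from the most upstream; the dashed line is the lowest IDR signal. The bar of the last TSS is the highest in each gene, with 552 at *Eno*, against 155 at its first TSS; neighbouring TSS within 1000 bp can share a region.

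The other paralogous dehydrogenase gene, *Gapdh1* (FBgn0001091, 2R 7791901 to 7793380, minus strand), had no start-site peak in the IDR set. Its pooled region had a signal of 55.0, ranked 11045 and had its summit at -6 bp from a TSS, within 500 bp of a TSS of *PolZ1*. The replicate signals were 33.6 in replicate 1 and 22.4 in replicate 2, with ranks of 7215 and 12011, and replicate 3 had no region within 500 bp. The signal of *Gapdh2* was 12.1 times that of *Gapdh1* in replicate 1, 16.8 times in replicate 2 and 19.0 times in the pooled list. In replicate 3 *Gapdh2* had 39.2 times the lowest signal of the list. Both genes encode the same enzyme activity, and the difference in rank held in every replicate that listed both.

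*Pglym78* (FBgn0014869, 3R 29148248 to 29149901, plus strand), the phosphoglycerate mutase gene, was the other pay-off gene without a start-site peak in the IDR set. Its pooled region had a signal of 43.8 and ranked 17026, with the summit at 29 bp and within 500 bp of a TSS of CG11882. The highest overlapping region ranked 9702 in replicate 1, with its summit at -214 bp, and 6593 in replicate 3, with its summit at 30 bp. Replicate 1 also had a region with its summit at -46 bp from the second TSS, which ranked 24341. Replicate 2 had no region there.

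Among the preparatory genes on the list of members, *Ald1* (FBgn0000064, 3R 26254069 to 26261591, minus strand), which encodes the aldolase that splits the sugar bisphosphate, came closest to the IDR set. Its highest pooled start-site region had a signal of 97.8, ranked 4559 and lay at -336 bp from the fifth TSS. The overlapping regions ranked 6952, 3055 and 6938 (mean 5648 ± 2246, SD, n = 3), so the gene had a top region in replicate 2 alone. Another region, at 23 bp from its second TSS and 202 bp from its first, had a pooled signal of 78.8. In replicate 1 the region at the second TSS ranked 6280, above that at the fifth. In replicate 3 the regions at the third and second TSS ranked 5044 and 5569, also above that at the fifth. *Tpi* (FBgn0086355, 3R 30132981 to 30134599, minus strand), whose enzyme interconverts the triose phosphates, had a region of signal 70.5 at -126 bp, which ranked 7012, 20439 and 20469.

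*Pgi* (FBgn0003074, 2R 8910900 to 8914069, minus strand) encodes the glucose phosphate isomerase. Its pooled start-site region, with a signal of 61.6 at -338 bp, is shared with *lin*. The highest start-site region of each replicate ranked 2794, 4512 and 8807, so the gene had a top region in replicate 1 alone. These were not 1 region, since their summits lay at -338, 201 and -43 bp. The replicate 1 summit was nearer to the TSS of *lin*, at -117 bp, and no replicate 2 region overlapped the pooled one. *Pfk* (FBgn0003071, 2R 10109740 to 10117457, plus strand), which encodes phosphofructokinase, the enzyme of the committed step, was the 1 member with no pooled region within 500 bp of a TSS. Replicate 1 listed a region at -88 bp from its second TSS with a rank of 27252 and a -log10 q of 0.0525. The other replicates listed none. In all, 9 of 10 members had a pooled region at a start site, against 46.2% of all genes, a share not matched for the number of TSS. Outside the IDR set these regions had low -log10 q values, and the pooled list includes background. The values were 1.58 at *Ald1*, 0.713 at *Tpi*, 0.468 at *Pgi*, 0.304 at *Gapdh1* and 0.107 at *Pglym78*.

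In every replicate 4 of 10 members had a top region at a start site, the same genes as in the IDR set, against 12.8% of all genes. Replicate by replicate the number was 5, 5 and 4, with *Pgi* added in replicate 1 and *Ald1* in replicate 2, against 20.2%, 17.0% and 16.9% of all genes. These shares were not matched for the number of TSS. The IDR set was derived from these replicates, so the counts are not independent of each other.

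**Figure D2:**
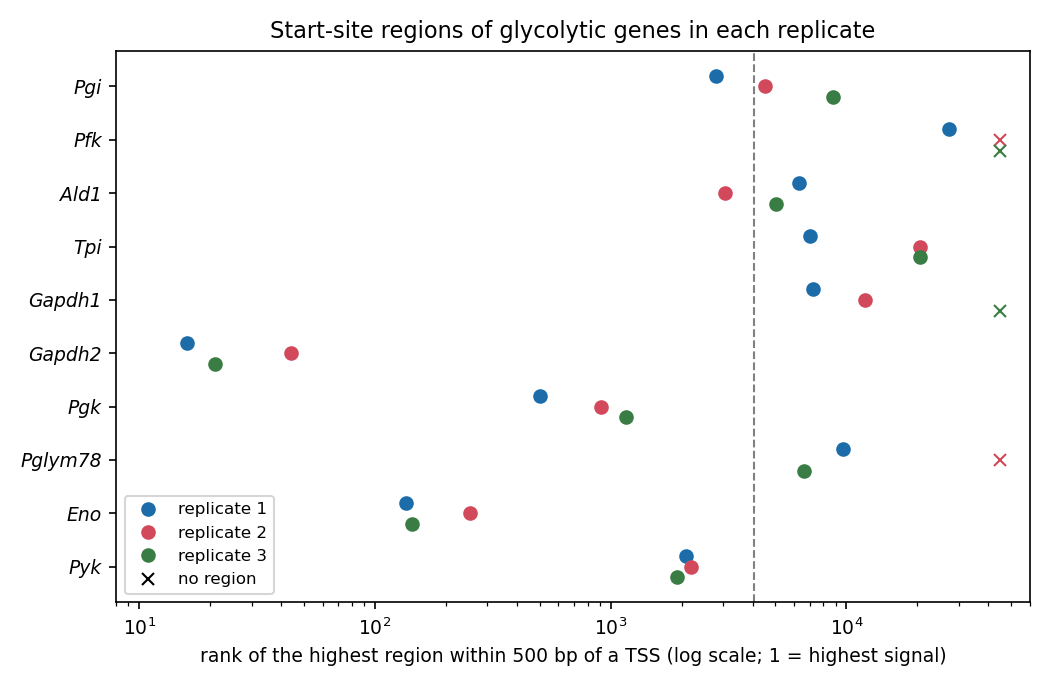
Rank of the highest region within 500 bp of any TSS (horizontal axis, log scale, 1 is the highest signal) for each glycolytic gene in each of 3 replicates; crosses stand for no region and the dashed line for the 4060th region. *Gapdh2*, *Eno*, *Pgk* and *Pyk* lie left of the line in all 3 replicates, and *Gapdh2* lies between ranks 16 and 44.

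Start sites included, 8 of 10 members had an IDR region in the gene or within 10 kb, against 59.6% of all genes. There were 23 such regions, with pooled signals of 112 to 1044 and a median of 211, and merging those that overlap left 21. The 16 of them away from the start sites of the member had signals of 112 to 403, with a median of 220.5. *Pgk* had 6, *Eno* and *Pyk* 4 each, *Pglym78* 3, *Pgi* and *Gapdh2* 2 each, and *Pfk* and *Gapdh1* 1 each. *Ald1* and *Tpi* had 0, and the nearest IDR regions were 14661 bp and 36018 bp away. The median was 2 regions per member and 1 per protein-coding gene, and 1.52% of genes had at least as many as *Pgk*. All 23 regions overlapped a region in every replicate, and 20 overlapped a top region in all 3. Overlapping neighbours took the same replicate regions, as with signals of 208 and 137 at *Pgi* and 373 and 229 at *Pgk*. The replicate summits nearest to that of the *Pgk* region of 229 ranked 1126, 4987 and 4673, outside the top regions in replicates 2 and 3. The pooled list held 93 regions within 10 kb of the members, and the replicate lists held 112, 78 and 86.

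Most of these regions belonged by position to neighbouring genes. Of the 23 summits, 7 lay within 500 bp of a TSS of the member and 11 within 500 bp of a TSS of another gene only, and of the other 5, 4 were in introns and 1 was intergenic. The nearest TSS was that of the member for 6 and of another gene for 17. At *Pgk* the overlapping regions with signals of 373 and 229 lay 1041 and 837 bp inside the gene, in front of *Bacc*, and the region with a signal of 272 lay inside *Bacc* itself. The region with a signal of 403 lay at -6717 bp, at the start sites of *HemK2*, *Snapin* and *Tnpo-SR*. At *Pyk* the highest region, with a signal of 402 at -4793 bp, was at the start sites of *Muted*, *JMJD6* and CG7071 and ranked 205, 646 and 678. A region of signal 260 lay in *Sar1*, a gene for a GTPase of the secretory pathway.

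The regions near the members without a start-site peak were all nearer to other genes. At *Gapdh1* a region with a signal of 351, which ranked 383, 448 and 965, lay in the 3′ UTR of *cn* at the CG46385 start site. At *Pglym78* the regions had signals of 263 near *rdog*, 205 near *eIF2D*, a translation initiation factor gene, and 134 near *Slbp* and *Rpn2*. At *Pgi* the regions of signal 208 and 137 lay near *CCT8*, a chaperonin subunit gene, and CG30349. The region of signal 128 near *Pfk* was intergenic, with *gem* the nearest gene.

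Among the genes with a start-site peak, *Gapdh2* had a region of signal 211 inside CG16952, and *Eno* had regions of signal 194 at CG17646 and 112 inside *Rim2*. The window of 10 kb is a limit set by rule. The regions nearest to it inside were 8743 bp from *Gapdh1* and 8262 bp from *Pyk*, and those nearest outside were 10466 bp from *Pgi* and 12327 bp from *Pgk*, with signals of 351, 260, 120 and 120.

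**Figure D3:**
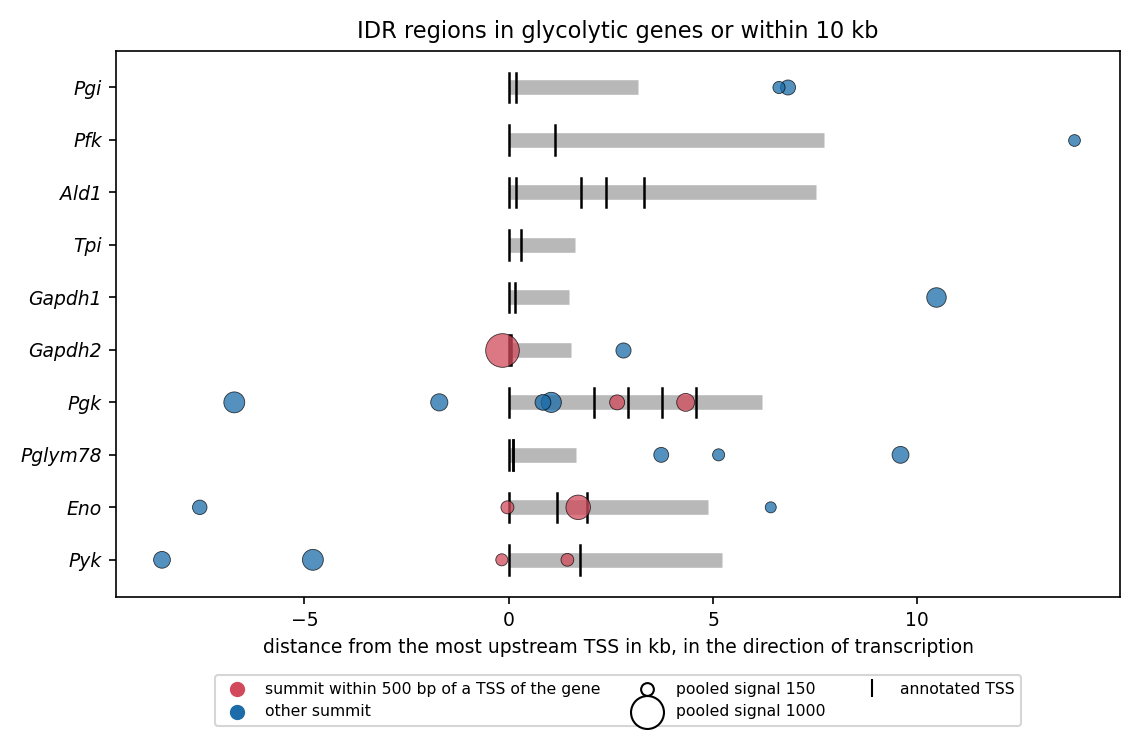
IDR regions in the 10 glycolytic genes or within 10 kb, by distance of the summit from the most upstream TSS (horizontal axis, kb in the direction of transcription); grey bars are genes, ticks are annotated TSS and the area of a circle is proportional to the pooled signal. Of 23 regions 7 are at a TSS of the gene, 4 of them inside or in front of *Eno* and *Pyk*.

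The genes around glycolysis were counted in the same way, from a list of 36 genes of glucose metabolism. A start-site peak in the IDR set was found at 13 of them, against 18.7% of all genes, and 10 had a top region in every replicate, against 12.8%. By the same measures 22 had a pooled region at a start site, against 46.2%, and 28 an IDR region within 10 kb, against 59.6%. Of the 17 listed genes with 2 to 5 TSS, 9 had a start-site peak in the IDR set, against 30.2% of all such genes. All 3 genes that dispose of glycolytic products had a start-site peak in the IDR set, and 2 of them had a top region in every replicate. *Ldh*, which encodes lactate dehydrogenase, had a pooled signal of 387 and ranked 767, 379 and 232. *Gpdh1*, the glycerol phosphate dehydrogenase gene, had 173, in a region shared with *Sfp26Ad*, and ranked 1157, 3472 and 2438. *Gpo1*, its mitochondrial counterpart, had 113, near the lowest IDR signal of 105.9. It ranked 2419, 5198 and 4209, outside the top regions in replicates 2 and 3.

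At the entry to the pathway 1 of 7 genes had a start-site peak in the IDR set, against 18.7% of all genes, and it was that of a hexokinase. *Hex-A* had a pooled signal of 587 at -163 bp and ranked 121, 174 and 180 (mean 158 ± 32.5, SD, n = 3), a range that overlaps that of *Eno*. *Glut1*, the glucose transporter gene, and *Hex-C* had no pooled region within 500 bp. Of 5 glycogen genes 2 had a start-site peak in the IDR set, against the same 18.7%. *GlyP*, which encodes glycogen phosphorylase, had a signal of 596 and ranked 181, 136 and 117, and *Pgm1*, the phosphoglucomutase gene, had 125.

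Of 6 genes for the entry of pyruvate into mitochondria and its oxidation by pyruvate dehydrogenase 4 had a start-site peak in the IDR set. These were *Pdhb* (signal 236), *Pdp* (141), *muc* (136) and *Pdk* (121), which encode subunits of pyruvate dehydrogenase and its regulators. Only 2 of the 6 had a top region in every replicate, since in replicate 3 *muc* ranked 8801 and *Pdk* 4345. For the counts by role in this paragraph the share of all genes was 18.7%. *Mpc1*, the pyruvate carrier gene, had its nearest pooled summit at -501 bp, just outside the distance used, and a start-site region in replicates 1 and 3, with ranks of 2457 and 1643. *Pdhb* shares its region with *alpha-Man-Ib* and *Pdp* with *Rab39*. Of 4 gluconeogenic genes *fbp*, the fructose bisphosphatase gene, had 217 and *PCB*, the pyruvate carboxylase gene, 198. The regulatory gene *Pfrx* had none in the IDR set, and its pooled start-site region had a signal of 92.2. *ERR* itself had a region of signal 186 shared with *Atg18a*, and its highest start-site regions ranked 2009, 960 and 2606 in the replicates. The hypoxia-inducible factor gene *sima* had none in the IDR set.

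**Figure D4:**
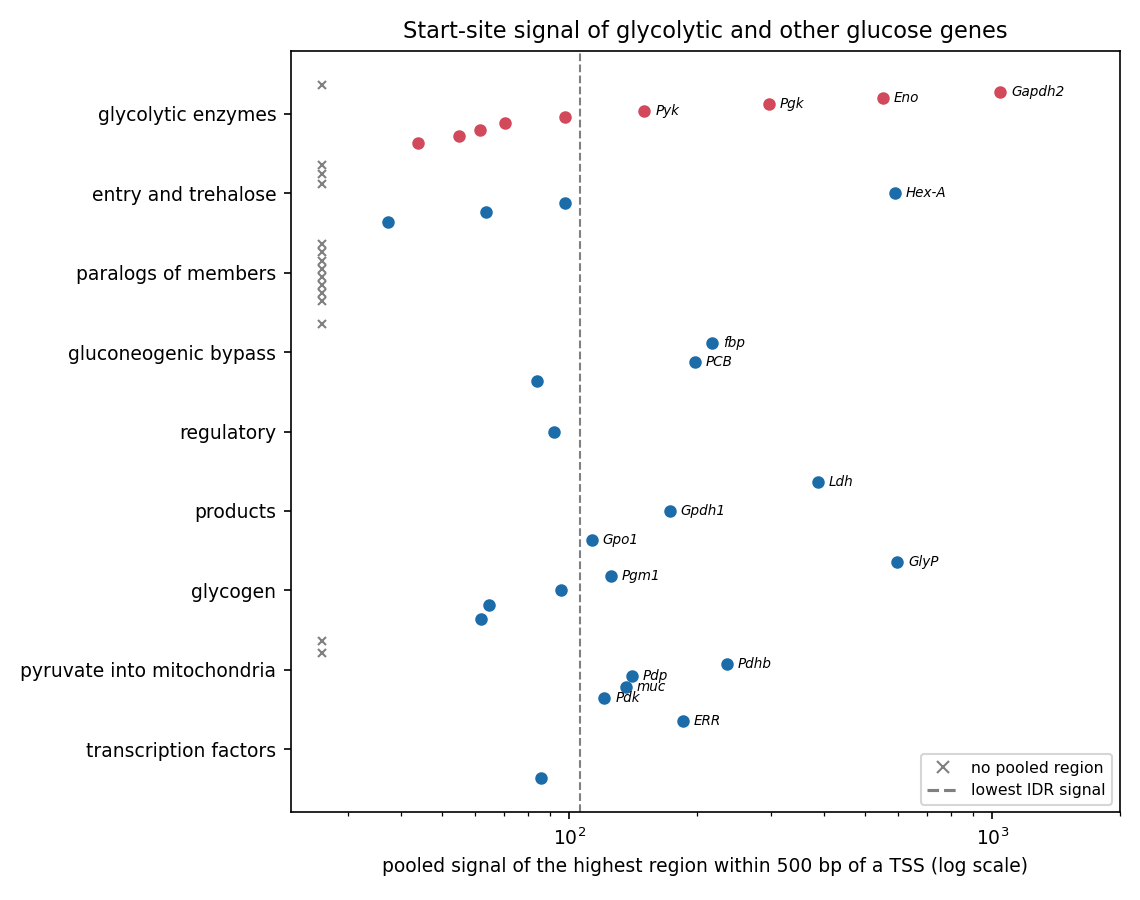
Pooled signal (horizontal axis, log scale) of the highest region within 500 bp of a TSS for the 10 glycolytic genes and 36 other genes of glucose metabolism, by role; crosses stand for no pooled region and the dashed line for the lowest IDR signal. *Gapdh2* has the highest value at 1044, followed by *GlyP* at 596, *Hex-A* at 587 and *Eno* at 552.

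The genes whose replicate ranks were most like those of *Gapdh2* were sought over 2569 other genes, by the distance between log10 ranks in 3 replicates. CG11309 and CG7632, which share 1 region, ranked 15, 28 and 27 (distance 0.226), and *Fkbp14* ranked 13, 25 and 18 (distance 0.270).

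In the 201 bp around the highest start-site summit the GC content was 28.9% at *Gapdh2*, 29.9% at *Eno*, 37.8% at *Pgk* and 33.3% at *Pyk*, and the median of all 2040 start-site IDR regions was 33.3% (quartiles 29.4% and 38.3%). *Gapdh2* lay just below the lower quartile and the other members between the quartiles. Of 13 words searched on both strands in these windows, 5 were found in at least 1 of the 4. TATAAA, the TATA box, was in those of *Gapdh2* and *Pyk*, against 42.0% of the 2040 windows and 33.5% of 19253 windows upstream of start sites. CGATA was in those of *Pgk* and *Pyk*, against 34.5% and 36.5%, and lies within the longer word TATCGATA. TCAGT was in those of *Gapdh2* and *Pyk*, against 29.9% and 33.3%.

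GAGAG was found in the *Pgk* window, against 19.1% of bound start sites and 25.3% of upstream windows. ACGTG, the core of hypoxia response elements, was found in the *Gapdh2* window, against 13.8% and 14.1%, and lies within CACGTG. The 8 words found in 0 of the 4 windows were AACAAT (25.3% and 21.4%), CTTTGA (11.7% and 11.4%), TATCGATA (6.62% and 6.14%), CACCTG (4.90% and 6.58%), CACGTG (1.81% and 2.18%), CAGGTAG (0.539% and 1.19%), AAGGTCA (1.57% and 1.38%) and GGTCACAC (3.73% and 3.29%). AACAAT, a word bound by Sox proteins, was present at the second *Pgk* peak printed above, which is not one of these 4 windows. No word was found in the window of *Eno*.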

How the data were processed

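The authors deposited lists of regions in the dm6 and dm3 builds, and only the dm6 lists were used. By its title the pooled list holds peaks and background as input for the IDR step. Per the deposited text lists, regions of each replicate were called against 1 control alignment, the pooled list on all 3 replicates, and the IDR set from these. The sources used here name no aligner or peak caller. The signal value of each region and the -log10 of its q-value were deposited by the authors; the signal is on the scale of its own list, so replicates were compared by rank. The IDR set equals the 4060 pooled regions with the highest signal. Fragments were 200 to 800 bp, per the labels.

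Genes and start sites came from Ensembl release 115 (BDGP6) and sequence from the Release 6 assembly; 9 of 10 members matched by symbol and *Pyk* by a RefSeq synonym, and 34 of the 36 other genes matched by symbol. A region counted for a gene if it overlapped the gene or its 10 kb flanks, and for a TSS if its summit was within 500 bp. Each region took the highest region overlapping it by at least 1 bp in each replicate. Motif windows were 201 bp wide, and the upstream windows 200 bp. Replicates are separate biosamples of 1 group, so no test between groups was possible. All members, pathway genes with a start-site peak in the IDR set, genes that share such a peak, genes nearest to other IDR regions and the 3 genes most like *Gapdh2* were named by rule; further names were chosen after seeing the values. The members and lists were chosen with earlier results of these data known. Alternatives changed the distance, window, list, replicates and ordering. The counting was tested on simulated data. Python 3.11.15, numpy 2.4.6, pandas 2.3.3 and matplotlib 3.10.9 were used.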

Additional observations from a re-analysis of the deposited data

How the results depend on the processing

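The IDR set and the distance to a TSS set the number of members with a start-site peak. It was 9 with all regions of the pooled list, where the background was 46.2%. It was 3 within 200 bp (background 12.2%) and 3 with the 2030 highest IDR regions (background 11.1%). It stayed at 4 within 1000 bp (background 21.3%) and with each region given to its nearest gene only (background 13.2%). The number with a top region in every replicate was 4 without any 1 replicate (lowest and highest 4), 3 with 2030 top regions, and 7 with all regions of the replicate lists. The share of all genes was not counted under these settings, so these numbers have no background to be read against. The number of IDR regions was 9 in the genes only, 17 within 5 kb and 30 within 20 kb. The median summit distance was -212.5 bp with the summits of replicate 3, and -244.5 and -231.5 bp with those of replicates 1 and 2. The number of words found was 2 with windows of 50 bp to each side and 8 with 200 bp. Of the other genes, 12 had a start-site peak within 200 bp and 15 within 1000 bp, where the backgrounds were 12.2% and 21.3%. Ordered by q, *Gapdh2*, *Eno* and *Pgk* tied at rank 1 in every replicate, since q is tied among the highest regions, and the mean rank of *Pyk* was 1698. No paired analysis was possible because the samples form 1 group. Depth is unknown, so a region that is not listed cannot be told from one missed for want of reads.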

Other observations

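The paralogs of the glycolytic genes were counted in the same way. Of 8 paralogs (*Ald2*, *Pglym87*, CG9961, CG7069, CG2964, CG7362, CG11249 and CG12229) 0 had a start-site peak in the IDR set, against 4 of 10 members and 18.7% of all genes. In the pooled list 0 had a region within 500 bp of a TSS, against 9 of 10 members and 46.2% of all genes. The nearest pooled summits lay upstream of a TSS at 7 of the 8, from -805 bp (CG7362) to -8745 bp (*Pglym87*), and downstream at CG12229, at 2628 bp. CG11249 had start-site regions low in the lists of replicates 1 and 2, with ranks of 29758 and 29856. Each paralog has 1 annotated TSS and each member 2 to 5, so the number of start sites differs along with the counts. No test of the difference was run, and the expression of these genes in the embryos was not measured here.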
